A study of Mus musculus with 6 samples.

Results

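L1cam and 5 related neural cell adhesion genes were followed in fibroblasts from mouse lung tumours: L1cam, Chl1, Nrcam and Nfasc, which make up the L1 family, and Ncam1 and Ncam2, which make up the NCAM family. They are 6 of the 55298 genes in the files and were found by symbol, each with a single entry. They were selected on their normalized values in these same 6 libraries, apCAFs against nonapCAFs, so their group differences are given as a description, without a test. All 6 libraries came from wild-type C57BL/6 mice over 8 weeks old that carried orthotopic lung tumours. The cells were sorted as cancer-associated fibroblasts, large in forward scatter, positive for podoplanin (written PDPL in the labels) and PDGFRa and free of mCherry, EPCAM, CD31 and CD45. The class II-positive fraction gave 3 libraries (apCAFs 1, 2 and 3) and the class II-negative fraction 3 libraries (nonapCAFs 4, 5 and 6). Tumours were pooled before sorting, both fractions were sorted side by side, and the labels do not say which libraries share an experiment. A library is therefore a pool of animals, and p-values measure only the spread between these libraries.

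L1 family proteins are single-pass membrane proteins with immunoglobulin and fibronectin type III domains outside the cell and a short tail that binds ankyrin inside it. NCAM proteins share the outer domain types, and Ncam1 protein is the main carrier of polysialic acid, a sugar chain that weakens adhesion. Both families are best known from axon growth and from the contacts between neurons and glia, and L1CAM is also known from tumour cells, where its outer part can be shed by proteases.

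The data showed L1cam lower in the class II-positive fibroblasts while its 3 relatives in the L1 family, and Ncam1, were higher. The L1cam level was 3.37-fold higher in nonapCAFs than in apCAFs. Nfasc was 5.03-fold, Nrcam 4.87-fold, Chl1 4.71-fold and Ncam1 3.53-fold higher in apCAFs. Ncam2 had values of at most 23 in all 6 libraries. Values are the authors' normalized counts, which are comparable between libraries under the authors' scaling, and sequencing depth is unknown. Each fold was computed from log2(value + 1), so the change of a faint gene is understated, and SE is the moderated standard error of the limma fit across all genes.

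The sequences before the transcription start of L1cam and Nrcam are shown because these L1 family genes went in opposite directions with little spread between libraries. Each line gives the 250 bases before a RefSeq start on GRCm38.p6, and capitals mark matches to GGGCGG (the GC box) or CAGGTG (an E-box) on either strand. The L1cam window lies at chrX:73880791-73881040 on the minus strand, before 1 of the 2 L1cam starts in the RefSeq table, and the Nrcam window at chr12:44328635-44328884 on the plus strand.
L1cam: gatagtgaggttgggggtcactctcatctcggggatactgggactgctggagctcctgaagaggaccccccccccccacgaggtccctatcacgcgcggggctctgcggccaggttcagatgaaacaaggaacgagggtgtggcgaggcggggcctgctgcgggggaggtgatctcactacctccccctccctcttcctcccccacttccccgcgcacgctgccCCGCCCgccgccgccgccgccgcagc
Nrcam: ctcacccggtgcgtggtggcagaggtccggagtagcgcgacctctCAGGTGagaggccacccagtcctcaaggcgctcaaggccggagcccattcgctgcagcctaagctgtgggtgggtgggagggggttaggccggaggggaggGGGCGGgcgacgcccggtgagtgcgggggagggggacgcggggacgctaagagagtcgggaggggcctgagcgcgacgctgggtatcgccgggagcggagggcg
The L1cam window had a GC content of 69.6% with 20 CpG, and the Nrcam window 72.4% with 25 CpG, against a median of 6 CpG over the 32851 windows of all genes in the RefSeq table. Each of the 2 windows held 1 GC box, a motif present in 32.7% of all windows. The Nrcam window also held the E-box CAGGTG, present in 17.2% of all windows, and these letters were not in the L1cam window. Neither were they in the windows of Chl1 (8 CpG) and Nfasc (4 and 1 CpG), which were also higher in apCAFs. The window of the other L1cam start had 12 CpG and no CAGGTG, and Ncam1 had no entry in the RefSeq table. The motif matches are descriptions of letters, and no binding was measured.

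Libraries within a group were not equally close. Over 17829 genes averaging 100 or more across the libraries, apCAFs 1 and 2 differed by an SD of 0.238 in log2 ratio and nonapCAFs 4 and 5 by 0.246, while apCAFs 3 and nonapCAFs 6 stood 0.479 to 0.708 from the others of their groups. The class II gene H2-Aa followed the labels, at 11556 to 22115 in apCAFs and 187 to 252 in nonapCAFs. The sort markers that both fractions share also differed: Pdpn was 8582 to 16492 in apCAFs and 1451 to 1848 in nonapCAFs (6.65-fold, limma adjusted p = 0.0183), and Pdgfra 40769 to 89023 and 17628 to 21525, without overlap (2.86-fold, limma adjusted p = 0.0855). Epcam lay at 21 to 209 in apCAFs and 3 to 13 in nonapCAFs, and Ptprc and Pecam1 were at or below 129 in all libraries. The summed value of 8 fibroblast markers ran from 1534465 to 2492866 in apCAFs and from 568587 to 625030 in nonapCAFs, of which Col1a1 and Col1a2 made up 83.9% to 90.3%. Lum, of the same list and named after its values were seen, lay the other way, at 8086 to 11304 in apCAFs and 15611 to 21256 in nonapCAFs (limma adjusted p = 0.0952). The apCAFs 1 and 2 libraries held transcripts of alveolar type II cells, whose 8 markers summed to 92779 and 76552, against 5582 in apCAFs 3 and 5696 to 5945 in nonapCAFs. In apCAFs 3 and in nonapCAFs most of that sum came from Lamp3 and Abca3. Sftpc, of the same list, gave 48853 and 40491 in apCAFs 1 and 2, 226 in apCAFs 3 and 124 to 185 in nonapCAFs. Lamp3, Abca3 and Sftpc were named after their values were seen. The part of alveolar type II transcripts in the members' differences was not tested.

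L1cam (ENSMUSG00000031391, chromosome X, 73853778 to 73896105, minus strand, mm10) gave 266, 258 and 263 in apCAFs 1, 2 and 3 and 885, 744 and 1058 in nonapCAFs 4, 5 and 6. The 3 apCAFs libraries lay almost on top of each other, including apCAFs 3, and the lowest nonapCAFs library was 2.80 times the highest apCAFs library. The means were 262.3 ± 4.0 in apCAFs and 895.7 ± 157 in nonapCAFs (SD, n = 3), a log2 difference of -1.75 (SE 0.17). The spread was narrow in apCAFs, with a coefficient of variation of 1.54%, against 17.6% in nonapCAFs. Without apCAFs 3 the log2 difference was -1.76 and without nonapCAFs 6 it was -1.63. Of the 17829 genes averaging 100 or more, 31 lay as low as L1cam or lower in apCAFs relative to nonapCAFs, L1cam included. The L1cam gene overlaps Arhgap4, a gene for a GTPase-activating protein, on the same strand, and the exons of the pair share 100 bases. Arhgap4 had 344.7 ± 126 in apCAFs and 262.7 ± 72.7 in nonapCAFs (limma adjusted p = 0.52), so its mean lay on the other side from that of L1cam. Avpr2, a vasopressin receptor gene on the opposite strand within the L1cam span, shares 0 exon bases with it and gave 8 to 76. The genes overlapping Chl1, Nrcam, Nfasc and Ncam2 also share 0 exon bases with them.

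Chl1, the close homologue of L1, was the most abundant member. Its gene (ENSMUSG00000030077) lies on chromosome 6, 103510586 to 103750211, on the plus strand. It gave 13229, 12990 and 22904 in apCAFs 1, 2 and 3 and 2646, 3507 and 4053 in nonapCAFs 4, 5 and 6. The groups did not overlap, and apCAFs 3 was 1.75 times the mean of apCAFs 1 and 2. The means were 16374 ± 5656 and 3402 ± 709 (SD, n = 3), a log2 difference of 2.24 (SE 0.30), and without apCAFs 3 it was 1.97.

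Nrcam, which in neurons acts at nodes of Ranvier and in axon guidance, had the smallest SE among the members that were higher. Its gene (ENSMUSG00000020598) lies on chromosome 12, 44328885 to 44601964, on the plus strand. It gave 2340, 2674 and 2089 in apCAFs 1, 2 and 3 and 512, 561 and 391 in nonapCAFs 4, 5 and 6. The lowest apCAFs library was 3.72 times the highest nonapCAFs library, the widest gap of the 6 members. Within each group Nrcam was lowest in the library that stood apart, apCAFs 3 and nonapCAFs 6, where Chl1 and Nfasc were highest. The means were 2368 ± 293 and 488.0 ± 87.5 (SD, n = 3), a log2 difference of 2.29 (SE 0.20).

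Nfasc encodes neurofascin, which holds together the axon initial segment and the contact between axon and myelin. Its gene (ENSMUSG00000026442) lies on chromosome 1, 132564690 to 132741797, on the minus strand. It gave 1857, 1749 and 5577 in apCAFs 1, 2 and 3 and 379, 522 and 716 in nonapCAFs 4, 5 and 6. The groups did not overlap, but the value of apCAFs 3 was 3.09 times the mean of apCAFs 1 and 2, the widest such gap among the members that were higher. The means were 3061 ± 2180 and 539.0 ± 169 (SD, n = 3), a log2 difference of 2.33 (SE 0.54), and without apCAFs 3 it was 1.79.

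Ncam1, the polysialic acid carrier, lies on chromosome 9, 49502136 to 49798925, on the minus strand (ENSMUSG00000039542). It gave 4798, 4825 and 8900 in apCAFs 1, 2 and 3 and 1714, 1800 and 1516 in nonapCAFs 4, 5 and 6. Again apCAFs 3 was the highest library, at 1.85 times the mean of apCAFs 1 and 2, while the nonapCAFs libraries differed little. The means were 6174 ± 2361 and 1677 ± 146 (SD, n = 3), a log2 difference of 1.82 (SE 0.29), and without apCAFs 3 it was 1.52. The antisense gene Gm11149 runs through Ncam1 and shares 417 exon bases with it. Gm11149 was also higher in apCAFs, at 608.3 ± 129 against 223.0 ± 35.0 (limma adjusted p = 0.0333). The strand setting of the counting is not given in the sources used here, so reads of the 2 genes cannot be told apart in the shared exon bases. Those are 417 of the 8664 exon bases of Ncam1, and Ncam1 had the larger values in every library.

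Ncam2, the second NCAM gene and known from olfactory axons, was barely present. Its gene (ENSMUSG00000022762) lies on chromosome 16, 81200697 to 81626828, on the plus strand. It gave 14, 18 and 3 in apCAFs 1, 2 and 3 and 23, 17 and 12 in nonapCAFs 4, 5 and 6. The groups overlapped, and no direction can be read at this level (log2 difference -0.77, SE 0.66, and -0.07 without apCAFs 3).

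**Figure D1:**
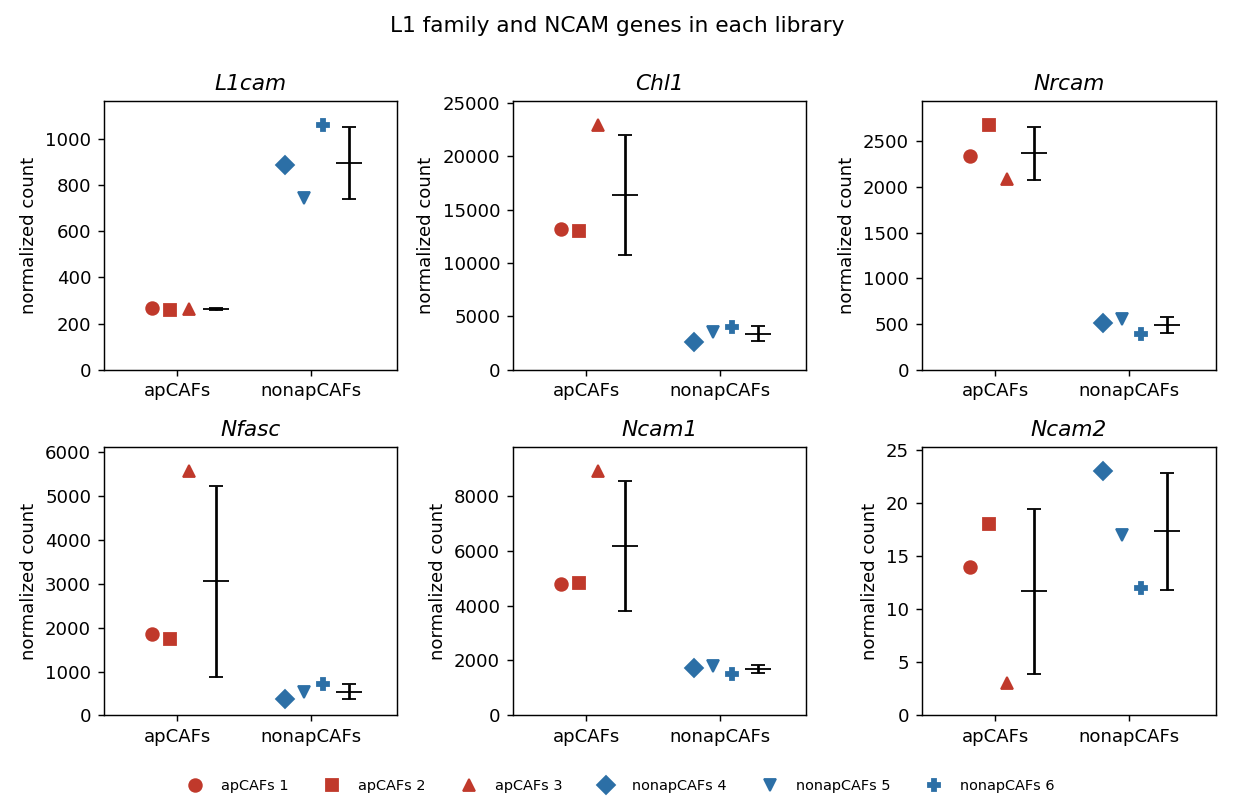
Normalized count (vertical axis, linear, starting at 0) of each member in the 3 apCAFs libraries (red) and 3 nonapCAFs libraries (blue), a symbol per library; the black bar and whisker give mean and SD. The 3 L1cam points of apCAFs sit between 258 and 266, below all nonapCAFs points, and apCAFs 3 is the highest library for Chl1, Nfasc and Ncam1.

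In all, 5 of the 6 members had groups that did not overlap, 4 of them higher in apCAFs (Chl1, Nrcam, Nfasc and Ncam1) and L1cam lower. Among the 36443 genes above 0 in at least 1 library, 17.1% had all apCAFs libraries above all nonapCAFs libraries and 15.4% had all of them below. Because this contrast was used to choose the members, nothing is read from their count. In the authors' deposited table the log2 fold changes of the same genes were -1.77 for L1cam, 2.27 for Chl1, 2.28 for Nrcam, 2.50 for Nfasc, 1.88 for Ncam1 and -0.53 for Ncam2. The pooled cells do not show whether fewer cells expressed L1cam in apCAFs or each cell held less L1cam RNA, and the same holds for the other members.

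**Figure D2:**
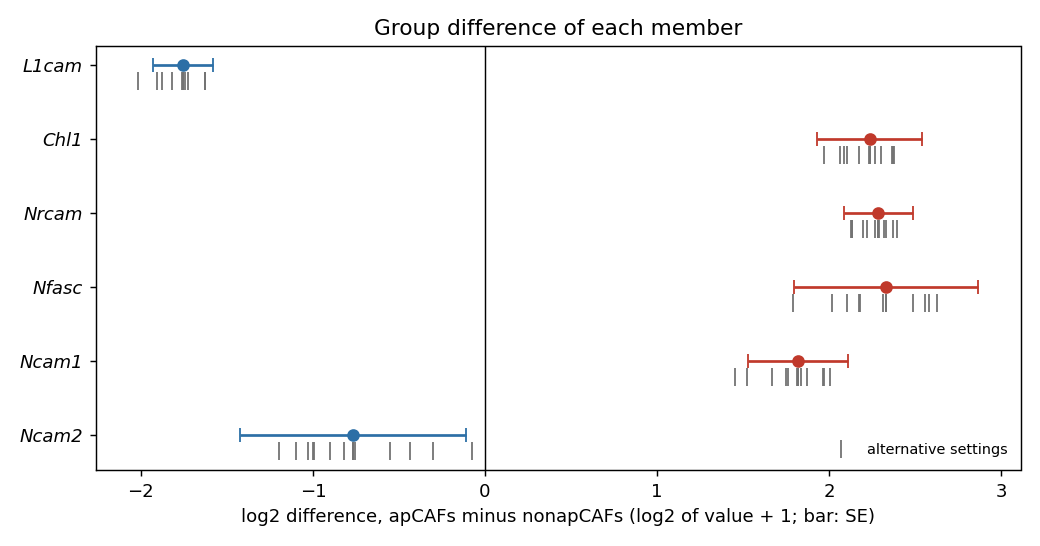
Log2 difference of each member between groups (horizontal axis, apCAFs minus nonapCAFs, on log2 of value + 1), with points and bars for estimate and SE, and grey ticks for the same value under the other settings tried. All ticks of Chl1, Nrcam, Nfasc and Ncam1 lie to the right of 0 and all ticks of L1cam to the left, and those of Ncam2 run from -1.20 to -0.07.

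Levels of different genes were set side by side only after division by the length of their merged GENCODE M21 exons, which run from 7347 bases in L1cam to 14145 bases in Nfasc. On this per-kilobase scale Chl1 was highest in both groups, with 1332 ± 460 in apCAFs and 276.7 ± 57.7 in nonapCAFs, and Ncam1 was next, with 712.6 ± 272 and 193.5 ± 16.8 (SD, n = 3). The order below them differed between the groups. In all 3 nonapCAFs libraries L1cam took rank 3, at 121.9 ± 21.4 per kilobase, above Nfasc (38.1 ± 12.0) and Nrcam (36.5 ± 6.6), which did not differ beyond their spread. In all 3 apCAFs libraries L1cam took rank 5, at 35.7 ± 0.55, below Nfasc (216.4 ± 154) and Nrcam (177.2 ± 22.0), whose order changed with the library. Ncam2 was last throughout, at 1.03 ± 0.69 and 1.53 ± 0.49.

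The share of L1cam in the summed per-kilobase value of the 6 members does not depend on how libraries were scaled to each other. That share was 1.83%, 1.78% and 1.03% in apCAFs 1, 2 and 3 and 20.1%, 15.0% and 19.7% in nonapCAFs 4, 5 and 6. The per-kilobase ratio of Nrcam to L1cam within a library was 4.84, 5.70 and 4.37 in apCAFs and 0.318, 0.415 and 0.203 in nonapCAFs, so Nrcam exceeded L1cam in every apCAFs library and was below it in every nonapCAFs library. The ratio of Chl1 to L1cam was above 1 in all libraries, from 29.7 to 52.0 in apCAFs and from 1.79 to 2.82 in nonapCAFs. The share of Ncam1 overlapped between the groups, at 28.6% ± 0.8 in apCAFs and 29.2% ± 4.7 in nonapCAFs (SD, n = 3).

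**Figure D3:**
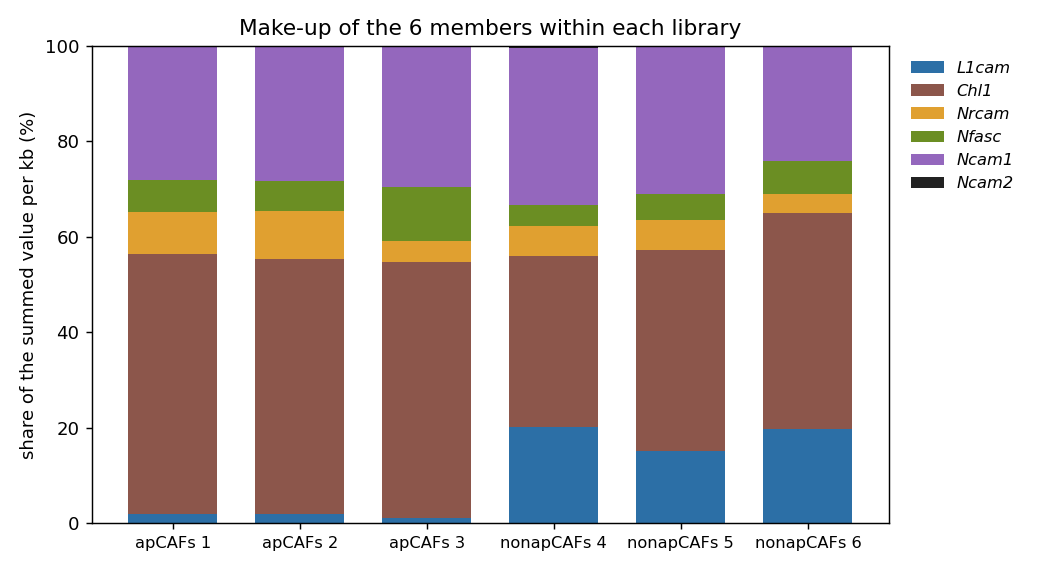
Share of each member (vertical axis, percent) in the summed per-kilobase value of the 6 members, a stacked bar per library. The L1cam segment is 1.03% to 1.83% in the 3 apCAFs bars and 15.0% to 20.1% in the 3 nonapCAFs bars, and Chl1 is the largest segment in each bar.

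Genes of proteins that bind, cut, anchor or modify L1 and NCAM proteins were listed in 6 roles, 62 genes in all, of which 60 were above 0 in at least 1 library. In limma 4 of the 60 rose in apCAFs and 0 fell, at an adjusted p under 0.05, while an unadjusted p under 0.05 was reached by 13 higher and 1 lower gene. Of all genes tested, 3.91% were called higher and 0.486% lower, and 13.1% lay higher and 6.19% lower with an unadjusted p below that level. The median log2 difference was 0.11 for the partner genes and -0.04 for all genes tested. The authors' deposited table, which used DESeq2, has 13 partner genes higher and 1 lower, of 51 with a value, at an adjusted p under 0.05. Of all genes with such a value there, 20.6% are higher and 9.77% lower. Leaving out apCAFs 3 gave a limma count of 4, leaving out nonapCAFs 4 or nonapCAFs 6 gave 1, and leaving out apCAFs 1, apCAFs 2 or nonapCAFs 5 gave 0. It was also 0 when each of the close pairs (apCAFs 1 and 2, nonapCAFs 4 and 5) entered as its mean.

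Among 19 measured binding partners and co-receptors 3 rose. Cd24a, a small glycosylated surface protein that binds L1, gave 754, 834 and 694 in apCAFs 1, 2 and 3 and 141, 115 and 75 in nonapCAFs 4, 5 and 6, which was 7.05-fold higher (log2 2.82, SE 0.27, limma adjusted p = 0.0144). Its groups were far apart and its apCAFs libraries close together. Itga9, an integrin subunit gene, was 4.78-fold higher, at 5520 ± 1680 against 1128 ± 146 (SD, n = 3, limma adjusted p = 0.0184). Cntn5, a contactin, was faint, at 15, 15 and 3 in apCAFs and listed at 0 in every nonapCAFs library (limma adjusted p = 0.0466). Its mean was under 100, the range in which nearly all false calls fell on simulated data. The other contactins measured, Cntn1, Cntn2, Cntn4 and Cntn6, named after their values were seen, lay between 0 and 37 in all libraries and did not pass.

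Among 10 genes for proteases, or for subunits of protease complexes, that shed or cut L1 family proteins limma called 0. An unadjusted p under 0.05 was reached by 2 higher and 1 lower. The authors' deposited table has the same numbers at an adjusted p under 0.05. The 2 most abundant had close means. Ncstn, a gamma-secretase subunit, had 14844 ± 490 in apCAFs and 14616 ± 344 in nonapCAFs (limma adjusted p = 0.923), and Adam10, a main L1 sheddase, 12716 ± 520 and 11825 ± 924 (limma adjusted p = 0.641). Adam8, another metalloprotease, chosen for mention after its values were seen, gave 1523, 1483 and 808 in apCAFs and 2726, 2689 and 3837 in nonapCAFs, without overlap (limma adjusted p = 0.0987). It passed as lower when testing was limited to genes averaging 100 or more (limma adjusted p = 0.0331), with a variance trend (limma adjusted p = 0.0176) and without apCAFs 3 and nonapCAFs 6 together (limma adjusted p = 0.0361). Bace2, chosen in the same way, had 737.7 ± 272 and 255.7 ± 40.7 (limma adjusted p = 0.0662).

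Among 11 measured cytoplasmic linkers and adaptors of these proteins limma called 0. An unadjusted p under 0.05 was reached by 3, all higher. The authors' deposited table has 4 of 11 higher at an adjusted p under 0.05. Over all genes the shares were 13.1% and 20.6%. The abundant Msn, for moesin, had 47791 ± 5459 in apCAFs and 49571 ± 4715 in nonapCAFs (limma adjusted p = 0.853). Sptbn1, a spectrin chain that joins ankyrin to the membrane skeleton, had 40860 ± 4357 and 29318 ± 2070 (limma adjusted p = 0.175). Ank3, the ankyrin of axon initial segments, named after its values were seen, gave 7093, 5934 and 2130 in apCAFs and 9158, 10226 and 9399 in nonapCAFs (limma adjusted p = 0.296). Its groups did not overlap, and the lowest value came from apCAFs 3.

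Of the 6 enzymes of polysialic acid and of the HNK-1 sugar, both of which NCAM can carry, 1 rose. St8sia4, a polysialyltransferase that acts on NCAM, gave 96, 85 and 257 in apCAFs 1, 2 and 3 and 15, 7 and 10 in nonapCAFs 4, 5 and 6 (11.5-fold, log2 3.53, SE 0.52, limma adjusted p = 0.0300). It was faint in nonapCAFs and highest in apCAFs 3, as Ncam1 was, and its mean was also under 100. The other polysialyltransferase of NCAM, St8sia2, had 229.7 ± 51.7 and 116.3 ± 33.0 (limma adjusted p = 0.153), with groups that did not overlap. The abundant B3gat2, of the HNK-1 pathway, had 3504 ± 492 and 3359 ± 350 (limma adjusted p = 0.859).

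Among 8 kinases and signalling proteins downstream of these molecules limma called 0, with 0 at an unadjusted p under 0.05 and 0 in the authors' deposited table, and log2 differences ran from -0.35 to 0.23. Src had 10501 ± 673 in apCAFs and 10805 ± 106 in nonapCAFs (limma adjusted p = 0.853), and the phosphatase gene Ptpra 10636 ± 638 and 9597 ± 514 (limma adjusted p = 0.518). Of 6 transcription factors and cofactors reported to act on L1cam or Ncam1, limma also called 0. At an unadjusted p under 0.05 and in the authors' deposited table the number was 0 as well. Rest, the repressor of neuronal genes, had 6945 ± 255 in apCAFs and 7463 ± 305 in nonapCAFs (limma adjusted p = 0.626). Zeb1 had 7545 ± 323 and 7218 ± 500 (limma adjusted p = 0.782). Pax6 and Rcor1, of the same list, were named after their values were seen. Pax6 gave 683, 497 and 235 in apCAFs and 751, 712 and 711 in nonapCAFs, lower without overlap (limma adjusted p = 0.365). Rcor1 was higher in apCAFs without overlap, at 6280 ± 60.9 against 5662 ± 533 (limma adjusted p = 0.52).

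Other immunoglobulin-superfamily adhesion genes known from neurons also had members that rose. Of 23 measured, 4 rose and 0 fell in limma, and 9, all higher, had an unadjusted p under 0.05, against 3.91% and 13.1% higher over all genes. The median log2 difference was 0.36, and the authors' deposited table has 8 higher and 0 lower of 15 with an adjusted p, against 20.6% higher over all genes. Cadm4, a synaptic and myelin adhesion gene, gave 3884, 4239 and 17707 in apCAFs 1, 2 and 3 and 218, 199 and 358 in nonapCAFs 4, 5 and 6 (26.5-fold, limma adjusted p = 0.0274). All its apCAFs libraries were far above nonapCAFs, and apCAFs 3 was the highest, as for Chl1, Nfasc and Ncam1. Cadm1, of the same list and named after its values were seen, lay the other way without overlap. It gave 1923, 1955 and 373 in apCAFs 1, 2 and 3 and 2783, 2707 and 2015 in nonapCAFs 4, 5 and 6 (limma adjusted p = 0.418). Thy1, a surface protein of neurons and also a fibroblast marker, was 2.97-fold (limma adjusted p = 0.0179), Sdk1, a synaptic sidekick protein, 3.03-fold (limma adjusted p = 0.0497) and Boc, a receptor for hedgehog ligands, 2.18-fold higher (limma adjusted p = 0.0464). The limma count was 4 without apCAFs 3 and 0 without any other single library.

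**Figure D4:**
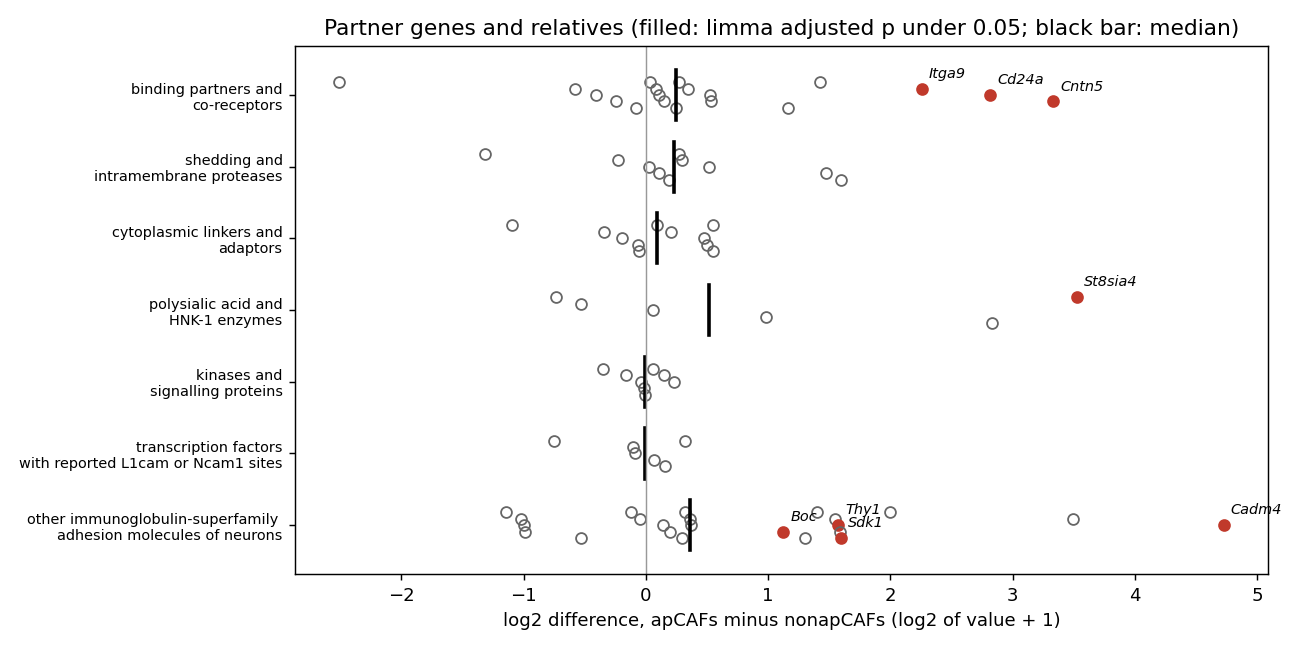
Log2 difference between groups (horizontal axis, apCAFs minus nonapCAFs, on log2 of value + 1) of each measured partner gene by role and of the relatives (bottom row); filled red points passed limma at an adjusted p under 0.05, and black bars are medians. The 8 filled points all lie to the right of 0, and the medians of the rows lie between -0.01 and 0.52.

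The genes whose values over the 6 libraries were most like L1cam, among 13326 others compared, were Mrpl38, Usp28, Nop2, Sin3b and Adamts14, with Pearson's r of 0.994 to 0.998 on log2 values. No p is given, since the 6 points share the split into groups and the scaling of each library. Their differences were smaller than that of L1cam, from 1.14-fold higher in nonapCAFs for Sin3b to 1.48-fold for Adamts14. Adamts14, a procollagen-processing protease, gave 8540, 8242 and 8683 in apCAFs 1, 2 and 3 and 12496, 12247 and 12985 in nonapCAFs 4, 5 and 6.

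Marker lists of cell types that carry L1 or NCAM proteins in other tissues were read beside these results. The summed value of 10 Schwann cell and glia markers was 2806 to 4767 in apCAFs and 1707 to 2491 in nonapCAFs, most of it from Mbp. Of the defining genes of that list, Sox10 lay between 0 and 9 and Foxd3 was at 0 in all libraries. The sum of 10 neuron markers was 4074 to 5083 in apCAFs and 3395 to 5275 in nonapCAFs, with Rbfox3 at 0 throughout, and 1 of them, Stmn2, rose (limma adjusted p = 0.0141). The median log2 difference of that list was -0.65, and Nefl and Prph were lower in apCAFs without overlap: Nefl gave 172, 138 and 42 against 650, 599 and 308 (limma adjusted p = 0.131), and Prph 396, 427 and 85 against 576, 484 and 432 (limma adjusted p = 0.45). The sum of 9 neuroendocrine markers was 505 to 3037 in apCAFs and 127 to 164 in nonapCAFs, and 1 of them, Ddc, rose (limma adjusted p = 0.0371, mean under 100). Stmn2, Nefl, Prph and Ddc were named after their values were seen.

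Markers of mesothelium, the outer lining of the lung, moved with the group. Of the 9 listed, 8 rose in limma (all but Bnc1), and their sum was 42390 to 54929 in apCAFs and 5451 to 6125 in nonapCAFs. Of the 8 endothelial markers 2 rose, Kdr and Erg, both named after their values were seen (limma adjusted p = 0.00966 and 0.0350). The groups overlapped for the rest: Pecam1, Cdh5, Tek, Tie1, Cldn5 and Emcn. Kdr alone gave 1843, 1914 and 3066 in apCAFs 1, 2 and 3 and 65, 77 and 36 in nonapCAFs 4, 5 and 6. The list's sum, mostly Kdr in apCAFs, was 2458 to 3849 in apCAFs and 363 to 482 in nonapCAFs. That of 8 leukocyte markers was 752 to 859 in apCAFs and 766 to 890 in nonapCAFs, but its members differed: Itgax was 177 to 303 in apCAFs and 526 to 556 in nonapCAFs (limma adjusted p = 0.0658), and Cd68 346 to 487 and 212 to 228 (limma adjusted p = 0.0578). Both were named after their values were seen, and the median log2 difference of the leukocyte list was 1.20. The part of mesothelial, endothelial, neuroendocrine and fibroblast marker levels in the differences of Chl1, Nrcam, Nfasc, Ncam1 and L1cam was not tested.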

How the data were processed

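RNA-seq gene values of 6 libraries were analysed. Per the file headers, the deposited per-library values are normalized counts, all whole numbers; being scaled by the authors and then rounded, they were handled as a score and no count model was used. Their totals, 77960347 to 93330791, are not depths. Trim Galore, Bowtie2, DESeq2 and mm10 are named in the submitters' processing notes; which program counted reads, with which annotation and strand setting, is not given in the sources used here. Per the file headers, the authors' deposited table adds the DESeq2 p-value, raw and adjusted, the fold change as a ratio and as log2, and a GC percent, which was not used.

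Group differences were estimated with limma 3.58.1 (R 4.3.3) on log2(value + 1), the group being the sole term, over the 36443 genes with any value above 0. Two-sided p-values were adjusted by Benjamini-Hochberg across those genes and called at 0.05. The fit was tested on simulated data: genes of known change were partly recovered, the smallest changes least often, and false calls exceeded the nominal rate, nearly all of them among genes with a mean under 100. Alternatives changed the pseudocount (0.5 or 8), the filter (a mean of 10 or 100, or none), the scaling, the variance model and the libraries used. Exon lengths came from GENCODE M21 (GRCm38) and start-site sequences from RefSeq (GRCm38.p6), by symbol, with an entry for 5 of the 6 members. Members and lists were chosen with earlier results of these data known. Named genes are the members, genes overlapping them, up to 6 called genes of each role or list by smallest p (the 2 most abundant where fewer than 2 were called), the 5 genes most like L1cam and the sort genes; others are marked.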

Additional observations from a re-analysis of the deposited data

How the results depend on the processing

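The direction of L1cam, Chl1, Nrcam, Nfasc and Ncam1 was the same under all 16 alternatives, and that of Ncam2 under the 15 that included it. L1cam moved beyond its within-group spread once, to -2.02 (log2) with quantile normalization. That setting and division by library totals shifted the median of all genes from -0.04 to -0.19 and -0.18. Leaving out 1 library at a time gave -1.88 to -1.63 for L1cam, 1.97 to 2.38 for Chl1, 2.13 to 2.39 for Nrcam, 1.79 to 2.62 for Nfasc, 1.52 to 1.97 for Ncam1 and -1.20 to -0.07 for Ncam2.

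The numbers of limma calls varied more, and the cause was not tested. Partner genes called higher numbered 6 and called lower 1 with a mean of at least 100, 1 higher with no filter, 8 higher and 1 lower with a variance trend, 0 with close pairs averaged, and 1 lower without apCAFs 3 and nonapCAFs 6 together, a setting chosen after seeing the data. Leaving out 1 library gave 0 to 4 higher. Relatives called higher numbered 5 with a pseudocount of 8 or a mean of at least 10, 6 with a mean of at least 100, a variance trend or without apCAFs 3 and nonapCAFs 6, 2 with a pseudocount of 0.5, 2 with library totals, 2 with quantile normalization, 1 with no filter, 0 with close pairs averaged, and 0 to 4 with 1 library left out. Of all genes, 1425 were called higher and 177 lower. These were 2267 higher with a pseudocount of 8, 2251 higher with a mean of at least 10, 2318 and 430 with a mean of at least 100, 350 and 86 with no filter, 1049 and 281 with quantile normalization, 1166 and 185 with library totals, 2963 and 490 with a variance trend, 0 and 0 with close pairs averaged (4706 genes at an unadjusted p under 0.05), 377 lower without apCAFs 3 and nonapCAFs 6, and 254 to 1601 higher and 56 to 198 lower with 1 library left out. No paired analysis was possible because the library numbers in the labels differ between the groups. Depth is unknown, so no limit for faint genes such as Ncam2 can be given.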
